A study of Danio rerio with 24 samples.

Results

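The mesoderm T-box genes and the regulators of the presomitic mesoderm were followed as 9 transcripts in zebrafish (Danio rerio) embryos: tbx16, tbxta, msgn1, tbx6, myf5, myod1, mespaa, her1 and her7. They are the rows of the deposited expression table that carry these 9 names, out of 32520 gene identifiers, and each name had 1 Ensembl identifier (ENSDARG00000007329 for tbx16, ENSDARG00000101576 for tbxta, ENSDARG00000070546 for msgn1, ENSDARG00000011785 for tbx6, ENSDARG00000007277 for myf5, ENSDARG00000030110 for myod1, ENSDARG00000017078 for mespaa, ENSDARG00000014722 for her1 and ENSDARG00000017917 for her7). The table holds 24 libraries of whole embryos at 6 hours post injection, in 12 groups of 2 biological replicates, and gives expression as TPM, a length-normalized share of each library. The depth behind the values is unknown, so no counting interval or detection floor could be given. The sources used here do not say whether replicates came from separate clutches, and p-values then measure only the spread between these libraries.

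Cas13d (RfxCas13d) cuts RNA at sites chosen by guide RNAs, so it lowers an mRNA without a change to the genome. Embryos were injected at the 1-cell stage. The 6 groups of the first set came from transgenic embryos with maternally provided RFP. One group was left uninjected, and the other 5 received 200 to 250 pg of Cas13d mRNA. Of these, 1 had the mRNA alone, 1 had guides to nanog as well, 1 had guides to rfp, 1 had a reporter mRNA, and 1 had that reporter plus guides to dnd. Each guided embryo received 500 to 600 pg of guides. The reporter is gfp mRNA (40 pg) that ends in nanos 3′ sequence. In the second set, groups received Cas13d mRNA alone, Cas13d mRNA with szrd1 guides, Cas13d protein (3 ng per embryo) alone, Cas13d protein with szrd1 guides, Cas13d protein with the reporter, and Cas13d protein with the reporter and dnd1 guides. The labels name no RFP transgene for the second set, and for replicate 2 of the group named last the label's protein dose is unclear. Set and group cannot be told apart, so each set was compared with its own controls.

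T-box proteins are transcription factors that bind DNA through a shared domain, and in the early embryo they are switched on at the margin by Nodal, Wnt and FGF signals. tbx16 (spadetail in the zebrafish literature) and tbxta (no tail, a Brachyury gene) direct the formation of trunk and tail mesoderm. msgn1 acts as cells enter the presomitic mesoderm, and tbx6 acts as that tissue matures. her1 and her7 are oscillating repressors of the segmentation clock. mespaa belongs to a family that acts at the front of the presomitic mesoderm, and myf5 and myod1 start the muscle programme.

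The targeted transcripts stood at 11.7% to 19.8% of their own controls in the 6 guide comparisons, which matches the labels. Each library had 13927 to 15757 genes at 1 TPM or more. The median absolute log2 difference between replicates was 0.108 to 0.211, except with nanog guides, where it was 0.502. RFP RNA was at 18.5 and 27.1 TPM with dnd1 guides and protein and at 0.18 TPM or less in the other libraries of the second set. In whole embryos, fewer cells of a type and less RNA per cell cannot be told apart.

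The early mesoderm genes were abundant in every library, and the later ones were near 0 outside 2 groups. On the TPM scale, tbx16 ran from 74.3 to 398 in the first set and from 131 to 378 in the second, and tbxta from 227 to 501 and from 280 to 781. her1 lay between 24.4 and 115 TPM and her7 between 23.0 and 140 TPM over both sets. msgn1 ran from 8.31 to 31.3 TPM in the first set and from 35.2 to 311 TPM in the second. mespaa was lower, at 2.4 to 9.2 TPM in the first set and 15.4 to 43.4 TPM in the second. tbx6, myf5 and myod1 did not exceed 0.68, 0.58 and 0.20 TPM in the first set. They reached 48.3, 23.3 and 5.81 TPM in the second. There tbx6 and myod1 passed the filter on low values only through the Cas13d protein and the Cas13d protein with szrd1 guides libraries. myf5 passed only narrowly without those libraries, with means of 0.37 to 1.725 TPM in the other groups of that set. A test required a mean of 1 TPM or more across a set's 12 libraries, so 6 of the 9 transcripts were tested in the first set and 9 in the second.

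**Figure D1:**
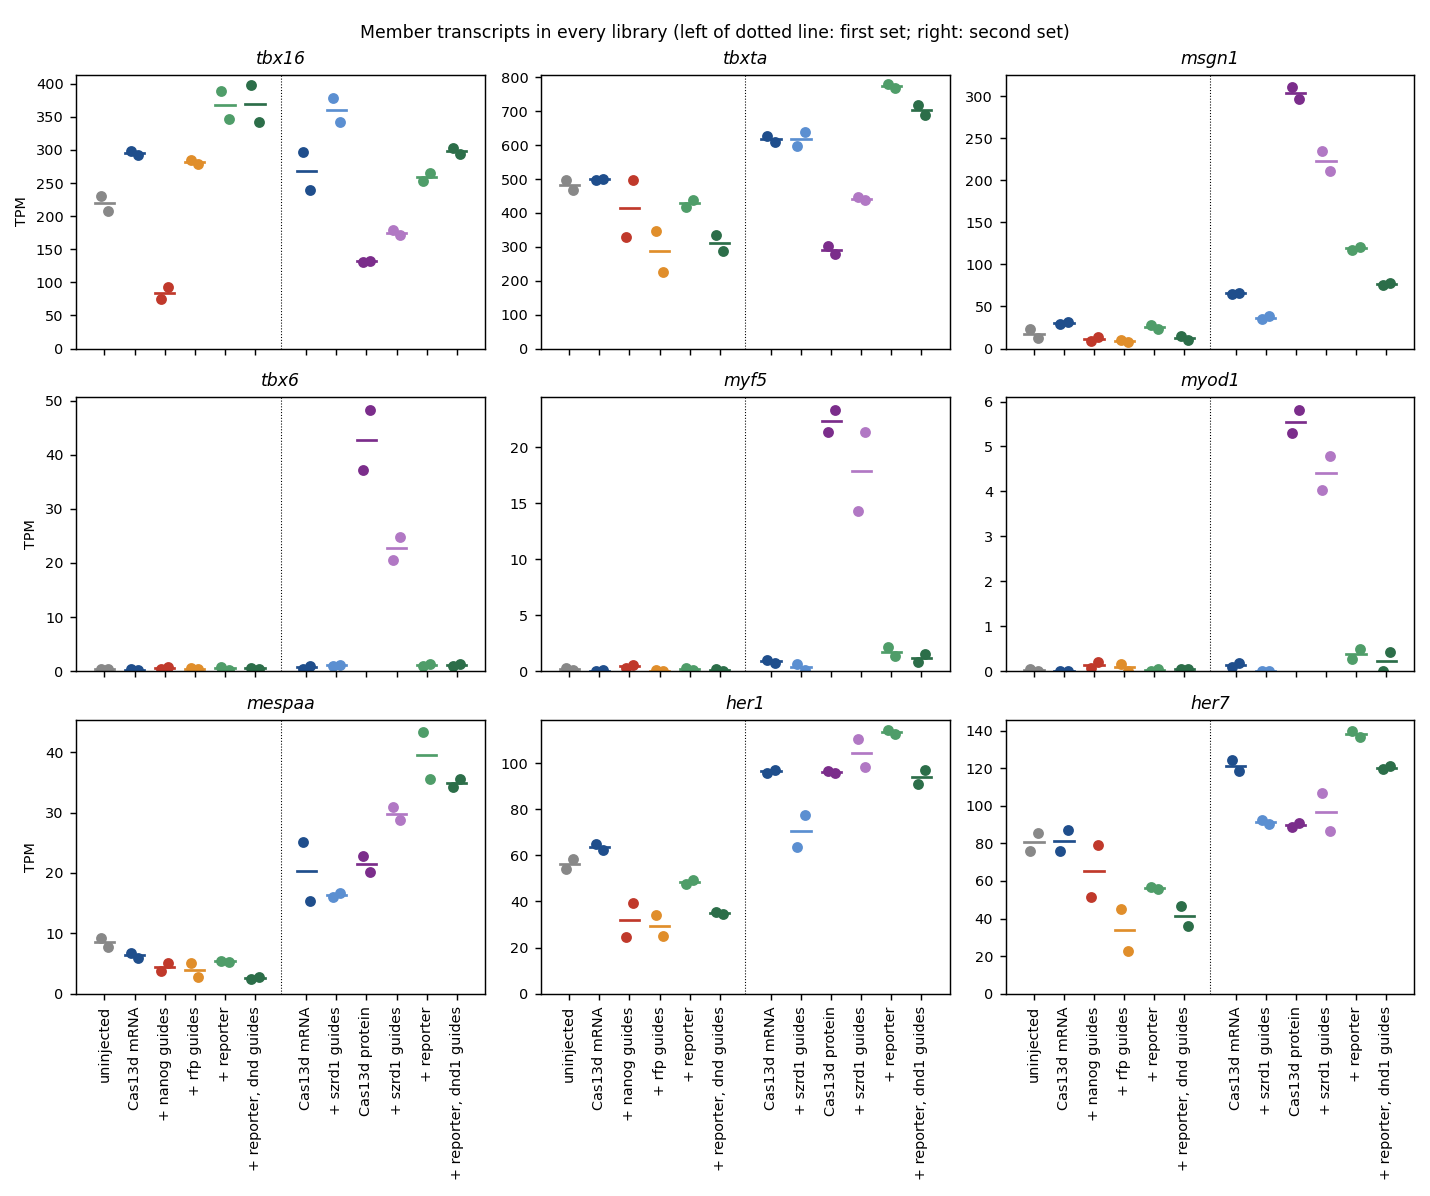
TPM of each of the 9 transcripts on a linear axis (panels differ in scale), with 1 point per library, a line at the mean of the 2 replicates, and the first and second set left and right of the dotted line. tbx16 was lowest with nanog guides (74.3 and 93.2 TPM), msgn1 was highest with Cas13d protein (311 and 297 TPM), and tbx6, myf5 and myod1 were near 0 except with Cas13d protein alone or with szrd1 guides.

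Each comparison was tested with limma on log2(TPM + 1), so that fold changes of low transcripts are understated. Calls needed both a Benjamini-Hochberg adjusted p (over all genes tested) below 0.05 and a log2 fold change of 1 or more in size. Cas13d mRNA alone against uninjected embryos asked whether the nuclease without guides moved these transcripts. None of the 6 tested was called by limma, where 0.00656% of all genes were called. Over all 15253 genes 2044 had an unadjusted p under 0.05 by limma, and so did 2 of these 6. One was tbx16, at 298 and 293 against 231 and 207 TPM (log2 fold change 0.43, SE 0.15, adjusted p 0.283). Next was msgn1, at 28.9 and 31.3 against 23.4 and 12.3 TPM (0.79, SE 0.28, adjusted p 0.294). For both genes the injected libraries lay above the uninjected ones, but they were picked by their p, so this adds no further support.

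With nanog guides, tbx16, msgn1 and her1 fell and tbxta, mespaa and her7 were not called. nanog encodes a maternal homeodomain factor that helps to start zygotic transcription. The control was Cas13d mRNA alone, and 3 of 6 transcripts were called, all lower, where 4.07% of all genes were called. tbx16 measured 74.3 and 93.2 TPM with the guides and 298 and 293 TPM without. Both guide libraries lay below every other library of the first set, and the mean of 83.8 ± 13.4 TPM (SD, n = 2) was 28.3% of the control mean. The log2 fold change was -1.82 (SE 0.15, limma adjusted p 1.03e-05).

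msgn1, a basic helix-loop-helix factor of the early presomitic mesoderm, was at 8.87 and 14.1 TPM with nanog guides against 28.9 and 31.3 TPM. The groups did not overlap, and the log2 fold change was -1.35 (SE 0.28, limma adjusted p 0.0127). The nanog guide libraries did overlap the uninjected ones, which were at 23.4 and 12.3 TPM for msgn1. her1 was at 24.4 and 39.4 TPM against 64.8 and 62.3 TPM (log2 fold change -1.01, SE 0.21, limma adjusted p 0.0126), just past the fold minimum. Its clock partner her7 was at 51.4 and 78.9 TPM against 76.1 and 86.9 TPM, with groups that overlapped (-0.35, SE 0.27, adjusted p 0.451). The other T-box member, tbxta, also overlapped its control, at 330 and 497 against 497 and 501 TPM (-0.30, SE 0.21, adjusted p 0.392). mespaa was at 3.75 and 5.08 against 6.73 and 5.9 TPM (-0.44, SE 0.25, adjusted p 0.293). All 6 tested members were higher in replicate 2 of the nanog guides than in replicate 1. Over all genes the median log2 fold change was 0.18 without replicate 1 of the nanog guides and -0.28 without replicate 2. The part of this difference between the replicates in the overlaps was not tested.

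The tbx16 call held in each of 11 alternative settings, which included leaving out any of the 4 libraries. The msgn1 call was lost without replicate 1 of the nanog guides, without replicate 2 of Cas13d mRNA and without the filter on low values, and the her1 call in 6 of 11 settings.

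The rfp guides are directed at the maternal transgene and not at a zebrafish gene. Against the same 2 Cas13d mRNA libraries, msgn1, her1 and her7 fell and tbx16 was not called. Of 6 transcripts 3 were called, all lower, where 5.99% of all genes were called. msgn1 measured 10.3 and 8.31 TPM against 28.9 and 31.3 TPM (log2 fold change -1.60, SE 0.28, limma adjusted p 0.00878). her1 measured 34.0 and 25.0 TPM against 64.8 and 62.3 TPM (-1.10, SE 0.21, limma adjusted p 0.0110). her7 measured 45.0 and 23.0 TPM against 76.1 and 86.9 TPM (-1.31, SE 0.27, limma adjusted p 0.0139). In all 3 cases both guide libraries lay below both controls, which adds no further support for genes picked by their call. Replicate 2 was the lower of the guide libraries in all 3 cases.

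tbxta was at 346 and 227 TPM with rfp guides against 497 and 501 TPM, a log2 fold change of -0.83 (SE 0.21). It passed the limma adjusted p (0.0251) but not the fold minimum, where 2098 of all 15253 genes passed the adjusted p at any fold change. tbx16 was at 284 and 279 TPM against 298 and 293 TPM (-0.070, SE 0.15, adjusted p 0.777). mespaa was at 5.06 and 2.67 TPM against 6.73 and 5.9 TPM (-0.63, SE 0.25, adjusted p 0.104). The 3 rfp calls were all lost without replicate 2 of the rfp guides and without replicate 2 of Cas13d mRNA. Calls over all genes also became far fewer in both fits, so these losses say nothing particular about the 3 transcripts.

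Since both guide groups share their control, they were also compared directly, where 3.84% of all genes were called. tbx16 was called, 1 of 6 transcripts, and was lower with nanog guides (log2 fold change -1.74, SE 0.15, limma adjusted p 9.96e-06; 74.3 and 93.2 against 284 and 279 TPM). That call held in each of 11 settings. For msgn1, her1, tbxta and mespaa the 2 guide groups overlapped (log2 differences of 0.25, 0.086, 0.53 and 0.19, adjusted p from 0.175 to 0.868). Over all genes the median of this comparison was 0.24 without replicate 1 of the nanog guides and -0.23 without replicate 2. her7 was at 51.4 and 78.9 TPM with nanog guides and 45.0 and 23.0 TPM with rfp guides, without overlap but under the threshold (0.96, SE 0.27, adjusted p 0.0587), and was called in 3 of 11 settings. Of 41 partner rows 11 were called, among them tbx16l (-1.503) and her11 (-2.37), lower with nanog guides, and tbxtb (1.94) and cdx4 (1.86), higher.

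**Figure D2:**
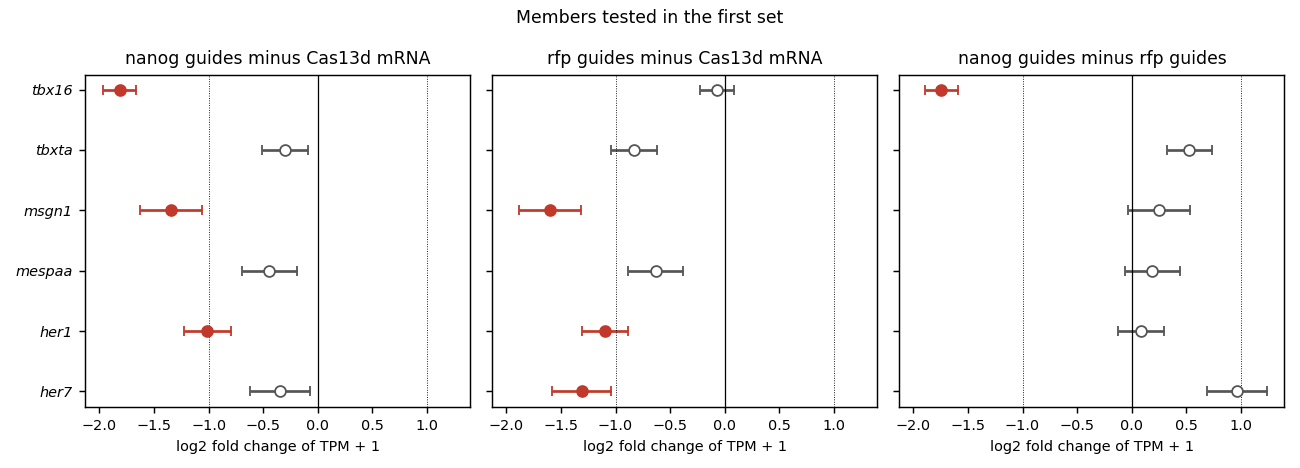
Log2 fold change of TPM + 1 with its standard error for the 6 transcripts tested in the first set, in 3 comparisons of 2 against 2 libraries, with filled red points for calls and dotted lines at the fold minimum of 1. The tbx16 value was -1.82 with nanog guides and -0.070 with rfp guides, while msgn1 was at -1.35 and -1.60; the first 2 panels share their control libraries.

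Ratios of 2 transcripts within a library do not depend on how the library was scaled. The ratio of her1 to her7 TPM was 0.474 and 0.500 with nanog guides and 0.681 to 1.09 in the other 10 libraries of the first set. The ratio of tbx16 to tbxta TPM was 0.188 to 0.225 with nanog guides, 0.822 and 1.23 with rfp guides, and 0.443 to 1.20 in the libraries of the other 4 groups. The nanog guide libraries were thus the lowest for both ratios.

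Other genes of the mesoderm programme with nanog guides were read from 4 lists, in a comparison where 4.07% of all genes were called. Of 7 other T-box genes tested, tbx16l (a close relative of tbx16, also called tbx6l in zebrafish) fell from 18.4 and 18.6 TPM to 2.35 and 3.22 TPM (log2 fold change -2.38), and eomesa, a maternal T-box gene, rose (1.41). Of 15 segmentation and Notch genes, the Delta ligand genes dlc (-1.01) and dld (-1.07) and the clock gene her11 (-1.39) fell and the Delta gene dla (1.47) rose. Of 18 rows of genes that induce or mark the posterior mesoderm, aldh1a2, which makes retinoic acid, fell most (-2.25). The Nodal ligand gene ndr1 (-1.30), eve1 (-1.08), snai1b (-1.02) and cyp26a1 (-1.01) also fell, and cdx1a rose (1.39). Of these 12 calls, 5 lay close to the fold minimum (dlc, dld, cyp26a1, snai1b and eve1) and were each lost in at least 3 of 11 settings. The median log2 fold change was -0.73 over the 6 members, 0.0086 over the other T-box genes, -0.37 over the segmentation list, -0.45 over the posterior list and -0.048 over all 15253 genes.

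With rfp guides the same lists had tbxtb, a second Brachyury gene, lower (-1.45) and eomesa higher (1.10) among 7 T-box genes. pcdh8, an adhesion gene of the paraxial mesoderm, was lower (-1.13) among 15 segmentation genes, and wnt5b (-1.40) and cdx4 (-1.34) were lower among 18 posterior rows. Each of these 5 calls was lost without replicate 2 of either group, where calls over all genes also became far fewer. The medians were -0.96 over the members, -0.62, -0.52 and -0.37 over these lists, and -0.049 over all genes. With these guides 5.99% of all genes were called.

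Some markers of other cell types moved in the same libraries, where 4.07% of all genes were called with nanog guides and 5.99% with rfp guides. With nanog guides, 2 of 5 tested neural ectoderm markers fell, with a summed level of 690 and 951 TPM against 1648 and 1721 TPM. Of 5 endoderm markers 1 fell, with sums of 204 and 302 against 500.4 and 509 TPM, and of 4 markers of the yolk syncytial layer 2 fell, with sums of 84.8 and 147 against 212 and 184 TPM. Of 5 axial mesoderm markers 1 (foxa2) rose, and none of 5 enveloping layer or 6 germ cell markers was called. No marker of these lists was at 0 in both libraries, and no marker of later gastrulation passed the filter. Of 9 oocyte-derived maternal transcripts 3 rose with nanog guides, with sums of 977 and 1332 TPM against 819 and 680 TPM. With rfp guides 4 of them rose, with sums of 1131 and 1224 TPM, and 2 of 5 neural markers fell (1134 and 1082 TPM). Of the 4 yolk syncytial markers mxtx2 rose with rfp guides (1.39), with sums of 295 and 242 TPM, unlike the sums with nanog guides, which lay below the control. The part of these shifts in the results above was not tested. Both yolk syncytial calls with nanog guides failed in some setting, as did both neural calls and the mxtx2 call with rfp guides. Of the oocyte calls, 1 of 3 with nanog guides and 1 of 4 with rfp guides held in every setting. The axial and endoderm calls with nanog guides held throughout, and so did 1 of the 2 neural calls.

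The reporter with Cas13d mRNA, against Cas13d mRNA alone, gave no call among 6 transcripts, where 0.839% of all genes were called. None of the 6 had an unadjusted p under 0.05 by limma, where 2671 of all 15253 genes had one. tbx16 was at 390 and 346 TPM against 298 and 293 TPM (log2 fold change 0.31, SE 0.15, adjusted p 0.308). her7 was at 57.0 and 55.7 against 76.1 and 86.9 TPM (-0.52, SE 0.27, adjusted p 0.349). Over all genes the median log2 fold change of this comparison was 0.13 on the TPM as deposited and -0.0037 after median-of-ratios scaling.

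The dnd guides, set against the reporter group, are directed at a germ cell gene. None of 6 transcripts was called by limma, where 0.0262% of all genes were called. An unadjusted p under 0.05 by limma was found for 474 of all 15253 genes and for 3 of these 6. msgn1 was at 14.3 and 10.7 TPM against 27.4 and 23.1 TPM (log2 fold change -0.96, SE 0.28, adjusted p 0.915). mespaa was at 2.4 and 2.71 TPM against 5.44 and 5.26 TPM (-0.84, SE 0.25, adjusted p 0.937), and tbxta was at 334 and 286 against 417 and 439 TPM (-0.47, SE 0.21, adjusted p 1). The libraries with guides lay below their controls for all 3 genes, which were picked by their p, so this adds no further support. tbx16 was at 398 and 342 against 390 and 346 TPM, with overlap. None of 41 partner rows was called by limma in this comparison (13 with an unadjusted p under 0.05), in the reporter comparison (8) or for Cas13d mRNA against uninjected embryos (5). Over all 15253 genes the numbers with an unadjusted p under 0.05 by limma were 474, 2671 and 2044 in the same order.

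In the second set, szrd1 guides were given with Cas13d as mRNA and as protein, each with its own control. With mRNA delivery none of 9 transcripts was called, where 0.924% of all genes were called. Of the 9, tbx6, myf5 and myod1 were at 1.05 TPM or less in these libraries, so they add little to the absence of calls. By limma 4 passed the adjusted p with fold changes under the minimum, where 709 of all 14716 genes passed it at any fold change. The same 4 had an unadjusted p under 0.05 by limma, as did 3011 of all genes. msgn1 was at 35.2 and 38.3 TPM against 65.3 and 66.5 TPM (log2 fold change -0.83, SE 0.074, limma adjusted p 0.00133). tbx16 was at 378 and 343 TPM against 296 and 239 TPM (0.43, SE 0.095, limma adjusted p 0.0325). her1 was at 63.7 and 77.8 against 96.0 and 97.3 TPM (-0.45, SE 0.097, limma adjusted p 0.0299) and her7 at 92.7 and 90.3 against 125 and 118 TPM (-0.41, SE 0.089, limma adjusted p 0.0343). For these 4 genes the groups did not overlap, but they were picked by their p, so this adds no further support.

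With szrd1 guides and Cas13d protein, again none of 9 was called, where 2.93% of all genes were called. By limma 4 passed the adjusted p alone, where 1804 of all 14716 genes passed it at any fold change. An unadjusted p under 0.05 by limma was found for 3991 of all genes and for 5 of the 9. tbxta was at 446 and 438 TPM against 304 and 280 TPM (log2 fold change 0.60, SE 0.061, limma adjusted p 3.45e-04). tbx16 was at 178.5 and 171 against 131 and 133 TPM (0.40, SE 0.095, limma adjusted p 0.0233). msgn1 was at 234 and 211 against 311 and 297 TPM (-0.45, SE 0.074, limma adjusted p 0.00471), and tbx6 at 20.5 and 24.9 against 37.2 and 48.3 TPM (-0.88, SE 0.23, limma adjusted p 0.0348). The guide libraries were above their controls for the first pair of genes and below them for the second pair. Since these genes were picked by their p, this adds no further support.

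The szrd1 effect on tbxta differed between the deliveries by 0.60 (SE 0.086, limma adjusted p 0.0117), from 0.0012 with mRNA to 0.60 with protein. This passed the adjusted p, as did 254 of all 14716 genes at any fold change. It did not pass the fold minimum, so it was not a call. For the other 8 transcripts the adjusted p was above 0.05, from 0.0703 (her1, 0.56, SE 0.14) to 0.936 (tbx16, -0.031, SE 0.13). The difference furthest from 0 was that of tbx6, at -1.19 (SE 0.32, limma adjusted p 0.0987). tbx6 was at 1.05 TPM or less in the mRNA libraries, where a fall could hardly show on log2(TPM + 1). It also passed the filter only through the protein groups compared here, so its difference is a description. In the same protein libraries the summed oocyte transcripts were 128.3 and 128.4 TPM with szrd1 guides against 63.6 and 53.2 TPM without. Of 8 tested 6 rose, where 2.93% of all genes were called. The summed markers of later gastrulation were 27.6 and 40.1 TPM against 91.6 and 113 TPM. The part of these stage lists in the tbxta and tbx6 values was not tested.

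Among the partner lists, szrd1 guides with mRNA had her12 (-2.23), cdx1a (-1.55) and cdx4 (-1.505) lower and her11 higher (1.06). In this comparison 0.924% of all genes were called. A fit of the 4 compared libraries alone called 0 of all 14716 genes, so the loss of these calls there says nothing particular about them. With protein, eomesa (1.53), fgf3 (1.62), fgf17 (1.14), snai1b (1.26) and ndr1 (1.48) rose, all 5 in every setting. The share of all genes called with protein was 2.93%.

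The dnd1 guides with Cas13d protein and reporter, against protein and reporter, gave no call among 9 transcripts, where 0.408% of all genes were called. Of the 9, tbx6, myf5 and myod1 were at 2.11 TPM or less in these libraries, so they add little to the absence of calls. By limma 1840 of all 14716 genes had an unadjusted p under 0.05, and so did 3 of the 9. msgn1 passed the adjusted p at a fold change under the minimum, with 75.6 and 78.4 TPM against 117 and 121 TPM (log2 fold change -0.62, SE 0.074, limma adjusted p 0.00647). her1 was at 91.1 and 97.3 against 115 and 113 TPM (-0.27, SE 0.097, adjusted p 0.276), and tbxta at 719 and 689 against 781 and 768 TPM (-0.14, SE 0.061, adjusted p 0.392). In these libraries 6 of 43 tested stage and cell-type markers were called, all higher. They were the oocyte transcripts buc (1.39), btg4 (1.69) and gtf3ab (1.19), yolk syncytial mxtx2 (1.85), and germ cell nanos3 (2.67) and dazl (1.71). The reporter ends in nanos 3′ sequence, and whether its RNA was counted under nanos3 was not tested. nanos3 was called higher with the reporter and Cas13d mRNA against Cas13d mRNA alone (4.39). It was not called with protein and reporter against protein alone. The summed oocyte transcripts were 356 and 359 TPM against 256 and 258 TPM. The part of these markers in the member values was not tested. In the fit of all 24 libraries, the dnd effect with protein was compared with that with mRNA. No transcript of the 8 tested was past the threshold (adjusted p of 1 each), where 3 of all 15256 genes were called. With protein minus mRNA, mespaa at 0.67 (SE 0.32) was the furthest from 0. Among the 8, tbx6 and myf5 were at 2.11 TPM or less in the groups compared, so they add little to the absence of calls.

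**Figure D3:**
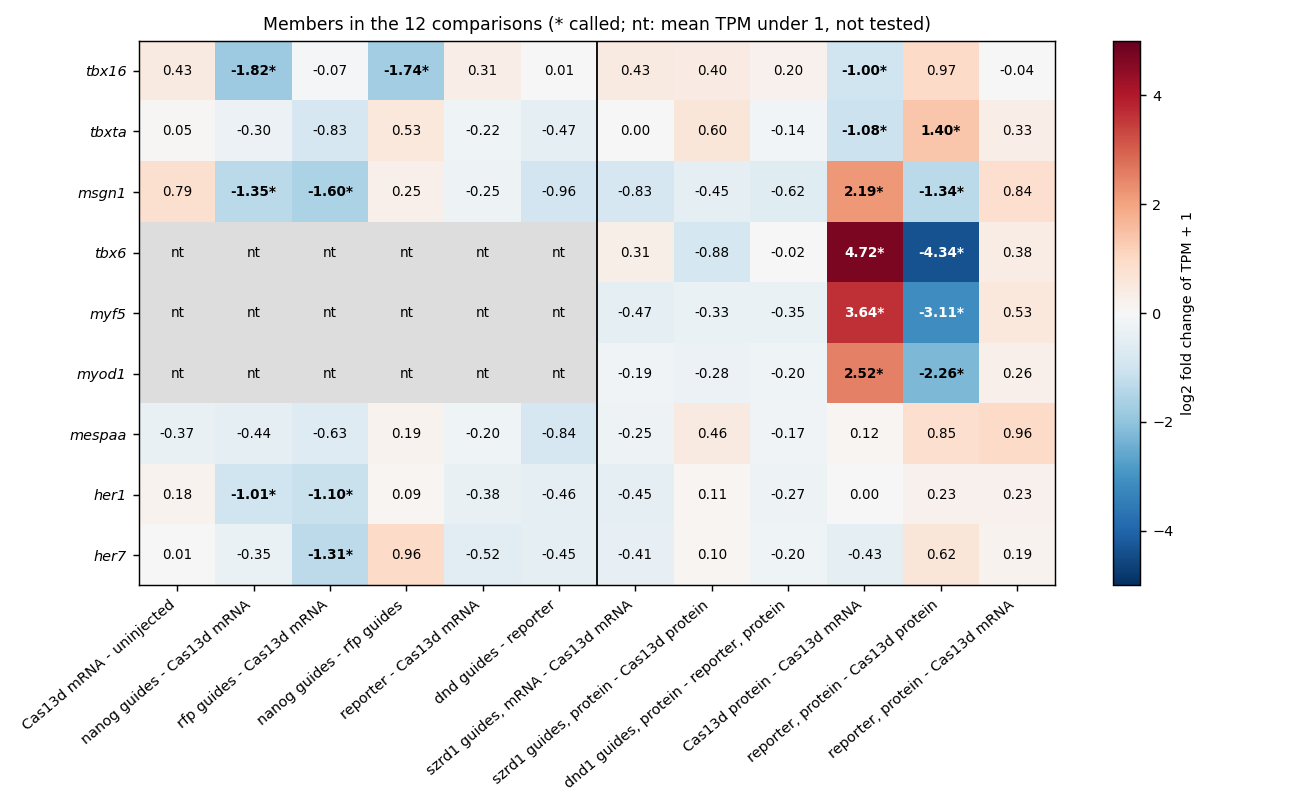
Log2 fold change of TPM + 1 of the 9 transcripts in the 12 comparisons, with values printed in the cells, stars on calls and grey cells where a transcript failed the filter. In the 6 comparisons of guides with their controls, msgn1 had values of -1.35, -1.60, -0.96, -0.83, -0.45 and -0.62, of which the first 2 share their control and were called. msgn1 was picked for being below 0 in all 6, and the share of all genes below 0 in all 6 was not computed. Cas13d mRNA, the control of the first 2, was the highest first-set group for msgn1. The largest values of the map belong to tbx6, myf5 and myod1 with Cas13d protein.

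Cas13d protein alone against Cas13d mRNA alone, both without guides, gave the largest differences. msgn1, tbx6, myf5 and myod1 rose, tbx16 and tbxta fell, and mespaa, her1 and her7 were not called. That is 6 of 9 transcripts, 4 higher and 2 lower, where 21.9% of all genes were called. tbx6 and myod1 passed the filter only through groups in which they were high, and myf5 passed only narrowly without those groups. The calls of these genes and the count that holds them are thus a description and no support for a rise.

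tbx6, a T-box gene of the maturing presomitic mesoderm, was at 37.2 and 48.3 TPM with protein and at 0.34 and 1.02 TPM with mRNA (log2 fold change 4.72, SE 0.23, limma adjusted p 3.72e-07). myf5 was at 21.4 and 23.3 TPM against 1.0 and 0.74 TPM (3.64, SE 0.27, limma adjusted p 3.76e-06). myod1 was at 5.29 and 5.81 TPM against 0.10 and 0.19 TPM (2.52, SE 0.21, limma adjusted p 8.83e-06). msgn1 was at 311 and 297 TPM against 65.3 and 66.5 TPM (2.19, SE 0.074, limma adjusted p 7.58e-08), 4.61 times the control mean. The msgn1 call held in each of 11 settings.

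tbxta was at 304 and 280 TPM with protein against 627 and 609 TPM with mRNA (log2 fold change -1.08, SE 0.061, limma adjusted p 7.72e-07). tbx16 was at 131 and 133 TPM against 296 and 239 TPM (-1.005, SE 0.095, limma adjusted p 1.85e-05). Both protein libraries lay below both controls for both genes, at 47.3% and 49.4% of the control mean. The tbx16 call stood at the fold minimum and was lost without replicate 1 of Cas13d mRNA (-0.85) or of Cas13d protein. The msgn1 to tbx16 ratio within a library was 2.37 and 2.23 with protein and 0.221 and 0.278 with mRNA.

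her1 was at 96.9 and 95.9 TPM with protein and 96.0 and 97.3 TPM with mRNA, with overlap (log2 fold change -0.0030, SE 0.097, adjusted p 0.982). her7 was at 88.6 and 90.8 TPM against 125 and 118 TPM and passed the adjusted p but not the fold minimum (-0.43, SE 0.089, limma adjusted p 0.00243). At any fold change 8288 of all 14716 genes passed the adjusted p, so this pass was common. mespaa was at 22.8 and 20.2 TPM against 25.1 and 15.4 TPM, with overlap (0.12, SE 0.19, adjusted p 0.627). mespaa and mespab are close relatives, so reads may have been divided between them. mespab was at 46.4 and 46.8 against 69.1 and 67.5 TPM (-0.54, adjusted p 0.00249).

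The partner lists also differed between these groups, where 21.9% of all genes were called. Over the 9 members the median log2 fold change was 0.12, with 5 above 0 and 4 below. Of 20 segmentation and Notch genes tested, 13 rose and none fell, with a median log2 fold change of 1.34 against 0.062 over all 14716 genes. Among them were the paraxial mesoderm factors foxc1a (2.77) and foxc1b (2.92), the Delta gene dla (2.67), the somite genes meox1 (2.29), tcf15 (1.42), ripply1 (1.22), ripply2 (1.33) and mespbb (1.57), and the Hes-family genes her12 (1.93), her15.1 (1.53), her15.2 (1.35) and her11 (1.12). notch2 also rose (1.97). foxc1a was at 73.4 and 79.2 TPM against 11.2 and 9.54 TPM. Of 7 other T-box genes, tbx16l (2.01), tbx1 (1.85) and tbx3a (1.68) rose and eomesa fell (-2.43). tbx16l was at 94.0 and 100.5 TPM against 25.3 and 21.5 TPM. In the posterior list 9 of 19 rows rose and 3 fell. wnt8a rose under both of its identifiers (3.98 and 2.07), as did cdx1a (3.98), cdx4 (2.03), cyp26a1 (1.74), aldh1a2 (1.66), wnt5b (1.23), sp5a (1.12) and sp5l (1.02), while ndr1 (-3.00), fgf3 (-2.29) and fgf17 (-1.44) fell. Of 7 genes of muscle differentiation, 2 passed the filter, mef2d (6.06 and 5.86 against 0.21 and 0.90 TPM) and smyd1b (6.01 and 10.1 against 0.19 and 0.24 TPM). Both passed only through the protein groups without reporter, and so did her15.1, her15.2, foxc1b and meox1, which leaves 9 called higher of the 16 segmentation genes that passed without those groups. The median of 1.34 still holds these 4 segmentation genes. The calls of her11 and mespbb were lost without replicate 2 of Cas13d mRNA, and that of sp5l in 4 of 11 settings.

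**Figure D4:**
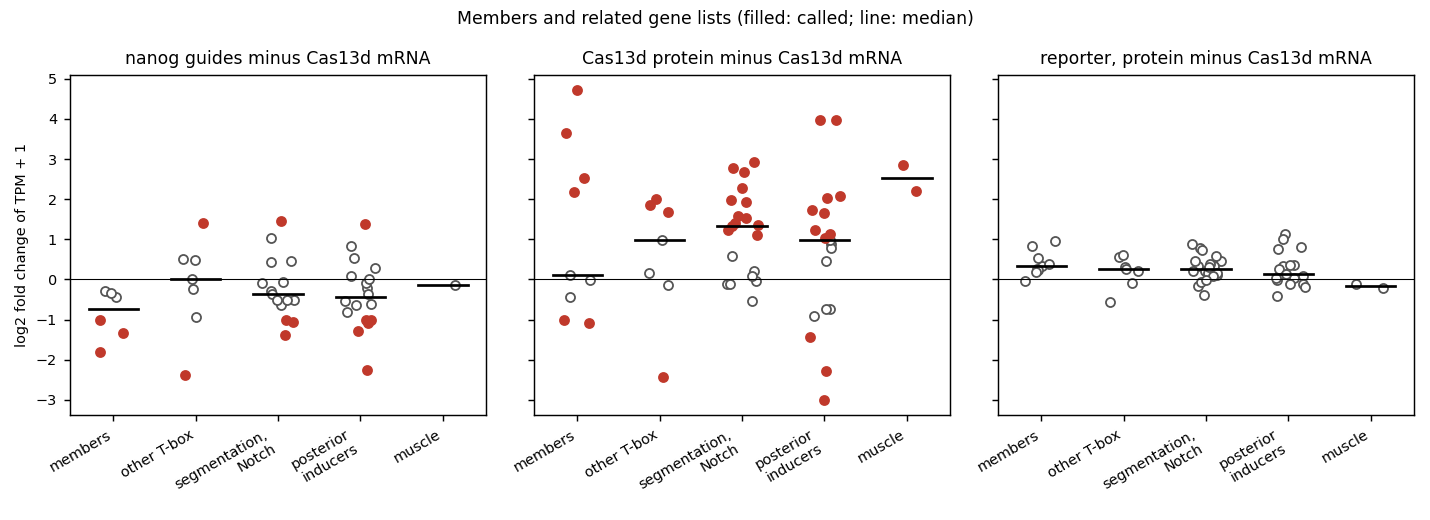
Log2 fold change of TPM + 1 of every tested member and partner gene by list in 3 comparisons, with filled points for calls and a line at each median. With Cas13d protein 13 of 20 segmentation genes were called higher, with a median of 1.34, where 21.9% of all genes were called. Of the 13, her15.1, her15.2, foxc1b and meox1 passed the filter only through the protein groups without reporter, which leaves 9 of 16. The points of tbx6, myod1, mef2d and smyd1b have the same limit, and myf5 passed only narrowly without those groups. All of these points are a description. With protein and reporter none of the listed genes was called against the same 2 Cas13d mRNA libraries.

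Some markers of embryo stage and of other cell types differed in the same libraries, where 21.9% of all genes were called. All 8 tested oocyte-derived transcripts fell, with a summed level of 63.6 and 53.2 TPM with protein against 373 and 374 TPM with mRNA, and nanog mRNA was at 8.93 and 7.25 against 154 and 153 TPM. The summed markers of later gastrulation were 91.6 and 113 TPM against 1.03 and 0.63 TPM, and 1 of the 6 markers of this list was at 0 in both protein libraries. Among them hoxb1b was at 78.3 and 94.1 against 0.11 and 0.10 TPM, and it and rx3 passed the filter only through the protein groups without reporter, so no count of calls is given. Of 7 axial mesoderm markers 3 rose (2 of them, shha and shhb, passed the filter only through the same groups), of 6 germ cell markers 3 fell (sums of 88.2 and 93.0 against 257 and 203 TPM), and of 4 yolk syncytial markers 2 fell (98.2 and 104 against 264 and 174 TPM). Of 5 endoderm markers 1 rose and 1 fell, and of 6 neural markers 2 rose and 1 fell. Of 5 enveloping layer markers 1 fell, which is close to the share of all genes. The part of these lists in the member values was not tested.

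**Figure D5:**
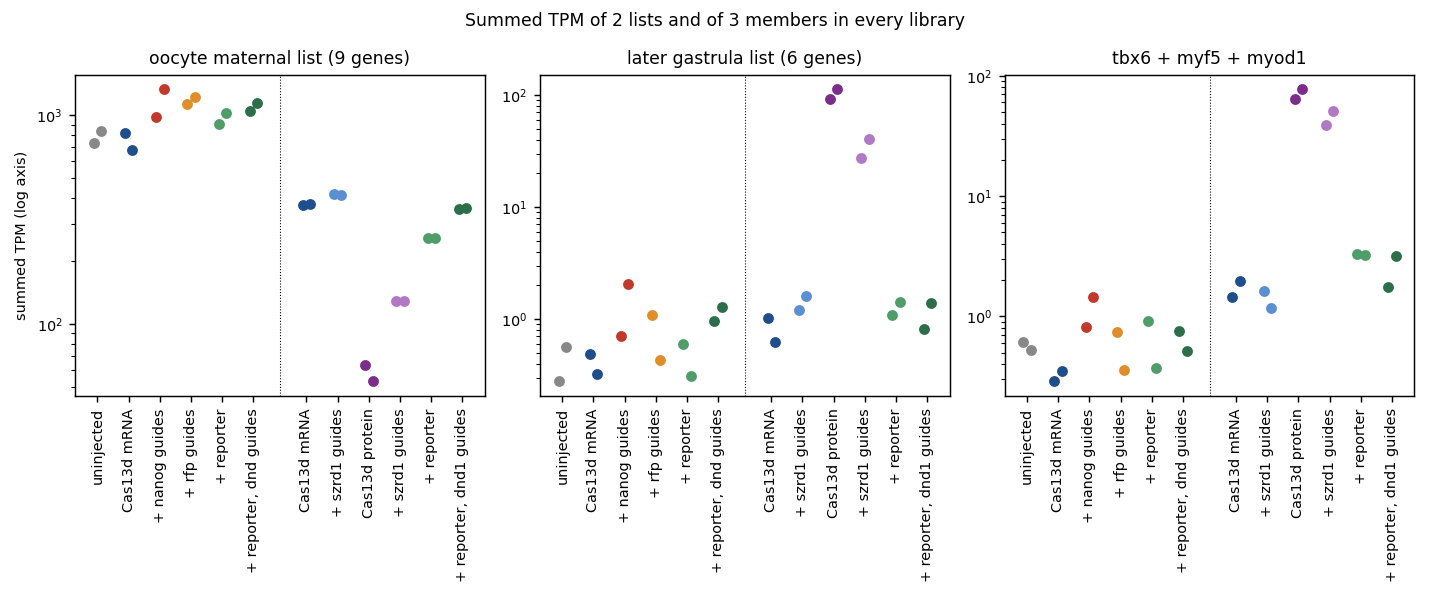
Summed TPM per library, on log axes, of 9 oocyte-derived transcripts, of 6 markers of later gastrulation, and of tbx6, myf5 and myod1 together. Cas13d protein libraries had the lowest oocyte sums (63.6 and 53.2 TPM) and the highest later gastrulation sums (91.6 and 113 TPM), followed in both by protein with szrd1 guides.

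Cas13d protein with the reporter did not share this profile, although it holds the same labelled dose of protein. Against Cas13d protein alone, 5 of 9 transcripts were called, where 17.6% of all genes were called. tbxta rose, at 781 and 768 against 304 and 280 TPM (log2 fold change 1.40, SE 0.061, limma adjusted p 4.18e-07). msgn1 fell (-1.34, SE 0.074, limma adjusted p 1.12e-06; 117 and 121 against 311 and 297 TPM). tbx6 was at 0.92 and 1.39 TPM (-4.34), myf5 at 2.11 and 1.34 TPM (-3.11) and myod1 at 0.26 and 0.49 TPM (-2.26), and each of these fell. The tbxta and msgn1 calls held in each of 11 settings. As above, tbx6 and myod1 were tested only because they were high in the Cas13d protein groups, here the control. myf5 passed the filter only narrowly without those groups. The calls of these genes and the count of 5 are thus a description. tbx16 was at 253 and 266 against 131 and 133 TPM, just under the fold minimum (0.97, SE 0.095, limma adjusted p 3.01e-05), and mespaa (0.85) and her7 (0.62) passed the adjusted p alone. At any fold change 7447 of all 14716 genes passed it. Among the partner lists, 12 of 20 segmentation genes fell and mespab rose (1.33), with a median of -1.15 against -0.062 over all genes. Of 7 other T-box genes 3 fell and eomesa rose (1.87), of 19 posterior rows 6 fell and 4 rose, and mef2d and smyd1b were lower (-2.41 and -2.97). Of the genes that fell, her15.1, her15.2, foxc1b, meox1, mef2d and smyd1b passed the filter only through the protein groups without reporter. Their falls, the count of 12 and the median of -1.15 are thus a description.

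Against Cas13d mRNA alone, the same protein and reporter libraries gave no call among 9 transcripts, where 1.64% of all genes were called. Of the 9, tbx6, myf5 and myod1 were at 2.11 TPM or less in these libraries, so they add little to the absence of calls. By limma 3 passed the adjusted p, where 1830 of all 14716 genes passed it at any fold change. An unadjusted p under 0.05 by limma was found for 4273 of all genes and for 4 of the 9. msgn1 was at 117 and 121 against 65.3 and 66.5 TPM (log2 fold change 0.84, SE 0.074, limma adjusted p 0.00124). mespaa was at 43.4 and 35.6 against 25.1 and 15.4 TPM (0.96, SE 0.19, limma adjusted p 0.0135), and was called without replicate 1 of Cas13d mRNA. tbxta was at 781 and 768 against 627 and 609 TPM (0.33, SE 0.061, limma adjusted p 0.0109). None of the 48 partner rows tested was called by limma in this comparison, 9 passed the adjusted p under the fold minimum, and 14 had an unadjusted p under 0.05. One of the 9 was tbx16l, at 35.1 and 37.1 against 25.3 and 21.5 TPM (log2 fold change 0.61, adjusted p 0.00782). The 3 comparisons among these groups share libraries with each other. The summed oocyte transcripts with protein and reporter were 256 and 258 TPM and the later gastrulation sums 1.08 and 1.43 TPM. Against Cas13d protein alone, 23 of 43 tested stage and cell-type markers were called, where 17.6% of all genes were called. Of these, 6 of 8 oocyte transcripts, 3 of 4 yolk syncytial markers (sums of 252 and 249 against 98.2 and 104 TPM) and 3 of 6 germ cell markers (226 and 240.1 against 88.2 and 93.0 TPM) rose. Of 7 axial markers 3 fell (407 and 415 against 489.5 and 523 TPM). Of 5 endoderm markers 1 rose and 1 fell (513 and 488 against 267 and 262 TPM), and of 6 neural markers 1 rose and 2 fell (1792 and 1736 against 1209 and 1159 TPM). Of 5 enveloping layer markers 1 rose (6753 and 6946 against 8211 and 8460 TPM). The 2 later gastrulation markers tested (hoxb1b and rx3) make up the rest. They and the axial markers shha and shhb passed the filter only through the protein groups without reporter. Protein alone is the control here, so their calls and the count of 23 are a description. No marker other than 1 of later gastrulation was at 0 in both libraries of either group. The part of these lists in the member values was not tested.

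The order of the groups differed between the members of the second set. msgn1 fell into a series with no overlap between neighbours: protein (mean 304 ± 9.97 TPM), protein with szrd1 guides (222 ± 16.9), protein with reporter (119 ± 2.79), protein with reporter and dnd1 guides (77.0 ± 1.98), mRNA (65.9 ± 0.86) and mRNA with szrd1 guides (36.8 ± 2.21; SD, n = 2 each). tbxta was highest with protein and reporter (774 ± 9.30 TPM) and lowest with protein (292 ± 16.6), the group in which msgn1 was highest, and the 2 mRNA groups overlapped (618 ± 29.3 and 618 ± 12.9). her1 spanned only 70.7 to 114 TPM in group means, with mRNA, protein, and protein with reporter and dnd1 guides overlapping in sequence. In the first set, msgn1 levels overlapped between each pair of neighbours from the reporter group (25.2 ± 3.03 TPM) down to rfp guides (9.33 ± 1.44).

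The shape of each transcript over the 12 groups was compared as the root mean square difference of group mean log2(TPM + 1), after centring each gene within each set. This was computed for the 6 members that passed the filter in both sets, over 13844 genes. Among the members, her1 and her7 were closest (0.258), followed by tbxta and her7 (0.270) and mespaa and her1 (0.301). tbx16 and msgn1 were farthest apart (1.18). The measure is not scaled by how far a gene moved, so pairs that moved little tend to lie closer. The root mean square of a gene's own centred values was 0.332 for her1, 0.379 for her7, 0.401 for tbxta and 0.446 for mespaa. It was 0.621 for tbx16 and 0.836 for msgn1. her1 and her7 are adjacent genes in the GRCz12tu assembly. Over all genes, tbx16 was closest to ralab (0.134), mych (0.164) and prok1 (0.202), and tbxta to efnb2a (0.132), mal2 (0.133) and pnpla6 (0.150). msgn1 was closest to pla2g12b (0.250), foxc1a (0.283) and nid1b (0.284), and mespaa to its relative mespab (0.185). her1 was closest to prkchb (0.134) and her7 to slc38a2 (0.190). These are descriptions over 12 group means from 24 libraries, and they carry the large contrast of the Cas13d protein groups.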

How the data were processed

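Libraries were made from total RNA with a stranded mRNA kit, with poly(A) enrichment named for the first set, and read as single 75 bp reads, per the labels' protocols. The authors deposited 1 table of TPM for all 24 libraries. The submitters' processing notes name bcl2fastq 2.18, STAR 2.6.1c, RSEM and the build danRer11. TPM sums to 1000000 per library and keeps no depth, so abundant transcripts can lower the values of others. All columns were matched to samples by title, and 0 were left out.

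Values were analysed as log2(TPM + 1) with limma 3.58.1 in R 4.3.3 (eBayes with trend), with 1 term per group and the spread shared by the 6 groups of a set. Genes that averaged 1 TPM or more across a set's 12 libraries were tested (15253 and 14716), two-sided, and adjusted by Benjamini-Hochberg over all of them. Every adjusted p is from this model. There were 12 comparisons of groups and 2 differences of effects. The model was tested on simulated data. The members, the 4 partner lists, the 8 marker lists and the tests were chosen with earlier results of these data known. The text names all members, the called genes of the partner lists and, for each member tested in both sets, the genes nearest in pattern. Alternatives were a pseudocount of 0.1, no filter, median-of-ratios scaling, rescaling without genes over 10000 TPM, only the groups compared, a replicate block, no fold change minimum, and leaving out each library, where the lone library left is assumed to vary like the other groups. The setting without a fold change minimum could not lose a call, and the replicate block leaves each fold change unchanged. Neither weighs much in a tally of settings in which a call held. Recomputing the list genes under these settings was chosen after seeing the data. Protein and promoter sequences were not used here. Close relatives and overlapping genes are uncertain, since the strand setting of the counting is not given in the sources used here.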

Additional observations from a re-analysis of the deposited data

Results flagged for a closer look

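The szrd1 effect on tbxta differed between the 2 forms of Cas13d delivery. The difference of the log2 fold changes, protein minus mRNA, was 0.597 (SE 0.086, limma adjusted p 0.0117), under the fold minimum for a call. With Cas13d protein both szrd1 libraries were above both controls (446 and 438 against 304 and 280 TPM), and with Cas13d mRNA the groups overlapped (598 and 639 against 627 and 609 TPM). Over 15 alternative settings the difference lay between 0.539 and 0.655, with adjusted p from 0.00894 to 0.0799. The stage lists that differ between the same protein libraries are given above, and their part in this difference was not tested.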

How the results depend on the processing

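Of 1245 recomputed member values, 1162 kept their direction and side of the threshold, 20 lost a call, 27 gained one and 36 changed sign, all of them for members that were not called. With only 2 libraries per group and no depth, small differences of low transcripts cannot be resolved.

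Leaving out 1 library in turn changed the number of members called in several comparisons, as it did the counts over all genes. The log2 fold change of her1, for example, ran from -1.35 to -0.67 with nanog guides and from -1.31 to -0.88 with rfp guides. No filter left 1 member called with rfp guides, where 221 of all 27855 genes were called. Rescaling without genes over 10000 TPM gave 2 for nanog against rfp guides, where 778 of all 15242 genes were called. Without a fold change minimum, 4 were called with szrd1 guides and mRNA, 4 with szrd1 guides and protein, 1 with dnd1 guides and protein, 8 for protein and reporter against protein, 3 for protein and reporter against mRNA and 1 for the szrd1 difference, where 709, 1804, 192, 7447, 1830 and 254 of all 14716 genes were called in the same order. That setting also called 7 for protein against mRNA, where 8288 of all 14716 genes were called. With rfp guides it called 4, where 2098 of all 15253 genes were called.

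Median-of-ratios scaling turned tbxta (-0.061) and her7 (-0.096) for Cas13d mRNA against uninjected, tbx16 with dnd guides (-0.014), tbxta with szrd1 guides and mRNA (-0.081) and tbx16 in the szrd1 difference (0.012). Rescaling turned her7 for Cas13d mRNA against uninjected (-0.017), tbx16 with rfp guides (0.058) and tbxta with szrd1 guides and mRNA (-0.012). The pseudocount of 0.1 turned myod1 in the szrd1 difference (0.94).

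Leaving out a library turned the following, with their ranges. For Cas13d mRNA against uninjected, her7 ran from -0.084 to 0.11. For nanog against rfp guides, msgn1 ran from -0.058 to 0.56, her1 from -0.25 to 0.42 and mespaa from -0.17 to 0.55. With dnd guides tbx16 ran from -0.10 to 0.11. With szrd1 guides and mRNA, tbxta ran from -0.047 to 0.049 and mespaa from -0.59 to 0.082, and with protein her7 ran from -0.047 to 0.25. With dnd1 guides and protein, tbx6 ran from -0.18 to 0.14 and myod1 from -0.45 to 0.062. For protein against mRNA, mespaa ran from -0.22 to 0.45 and her1 from -0.013 to 0.0066, and for protein and reporter against mRNA tbx16 ran from -0.19 to 0.12. In the szrd1 difference, tbx16 ran from -0.19 to 0.12, myf5 from -0.14 to 0.41 and myod1 from -0.19 to 0.017. In the dnd difference tbx6 ran from -0.27 to 0.12. The cause was not tested for any of these.

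Deviations of same-numbered replicates had correlations of -0.28 to 0.23 over 15 pairs of groups in the first set and -0.078 to 0.15 over 15 in the second. No pairing by replicate number was used in the main model. Whether some groups shared a clutch cannot be told from these values. With the replicate block, 18 of 107 member tests were called, the same 18 as without it.

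Counts over all genes moved more. With nanog guides, rescaling gave 890 calls, 656 higher, against 621, 297 higher, and the median of all genes went from -0.048 to 0.13. With rfp guides, rescaling gave 1001 calls, 530 higher, and no filter 221, 132 higher, against 913, 329 higher, and rescaling took the median from -0.049 to 0.060. For nanog against rfp guides, rescaling gave 778 calls, 515 higher, against 585, 314 higher. Median-of-ratios scaling gave 182 calls, 115 higher, against 128, 98 higher, with the reporter and Cas13d mRNA, and 135, 61 higher, against 136, 79 higher, with szrd1 guides and mRNA. Over all settings with a fold minimum the counts ran from 255 to 1047 with nanog guides, from 45 to 1256 with rfp guides, from 384 to 1328 for nanog against rfp guides, from 5 to 234 with the reporter, from 0 to 8 for Cas13d mRNA against uninjected, and from 2 to 10 with dnd guides. In the second set they ran from 0 (only the groups compared) to 189 with szrd1 guides and mRNA, 281 to 647 with szrd1 guides and protein, 13 to 81 with dnd1 guides and protein, 3113 to 4019 for protein against mRNA, 2474 to 3377 for protein and reporter against protein, and 86 to 373 for protein and reporter against mRNA.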
